A study of Rattus norvegicus with 8 samples.

Results

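The genes described here carry amino acids into the cell, make some of them, and load them onto tRNA for protein synthesis. They were measured in primary cultures of rat semicircular canal duct (SCCD) epithelium, the sheet of cells that lines the canals of the balance organ. The members were all genes of the carrier families SLC1, SLC3, SLC6, SLC7, SLC36, SLC38 and SLC43, the enzymes Asns, Psat1, Phgdh, Psph, Shmt1, Shmt2, Glul and Tat, and the tRNA synthetases of the cytosol, each named by the single gene symbol of a probe set. That gave 68 genes with 87 probe sets, of 10411 genes with 1 symbol on the array: 40 genes of the carrier families, 8 enzymes and 20 synthetases. No SLC43 gene had such a probe set, Slc7a11 and Slc1a4 were not analysed here, and Slc7a6os, which overlaps a carrier gene but encodes no carrier, was kept because its symbol meets the rule.

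The cultures came from canals of neonatal Wistar rats of 3 to 5 days of age, grown on permeable supports. Untreated control cultures (n = 4) were set against cultures given 100 nM dexamethasone (n = 4), a synthetic glucocorticoid, with 1 array per sample. How long the cultures for the arrays were exposed is not given in the sources used here, nor whether the 4 samples of a group came from separate dissections, so every p-value here reflects the variation among these samples alone, which may be technical. In such a mixed culture, fewer cells of a type and less RNA per cell cannot be told apart.

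Cells take up amino acids mainly through carriers of the solute carrier (SLC) families, some driven by the sodium gradient and others exchanging 1 amino acid for another. Shortage of amino acids or stress in the endoplasmic reticulum leads to translation of the transcription factor ATF4, which switches on carriers, the enzymes of serine and asparagine synthesis, and many tRNA synthetases through a DNA element bound by C/EBP and ATF proteins. Glucocorticoids are known to change the handling of amino acids in liver and muscle, where Tat and Glul are classical targets. SLC6 also holds carriers of neurotransmitters, creatine and taurine, so that membership of a family does not make every gene a supplier of protein synthesis.

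Because many synthetase genes are known targets of ATF4, their promoters were searched first. The C/EBP-ATF element was written as TGATGNAA and searched on both strands, from 250 bases before to 50 bases after each gene start (RefSeq, GRCr8). It was found in 1332 of 33469 promoters, or 3.98%. Of the 56 members with a promoter entry, 10 held it: 7 of 18 synthetases (Aars1, Cars1, Iars1, Mars1, Nars1, Tars1 and Yars1), the carriers Slc38a1 and Slc7a1, and Tat. The following upstream stretches of 120 bases show the match in capitals for 4 synthetases that recur below. They lie at chr19:55908362-55908481 on the plus strand (Aars1), and on the minus strand at chr7:65023754-65023873 (Mars1), chr2:62114803-62114922 (Tars1) and chr17:15193653-15193772 (Iars1). Each is written 5′ to 3′ along the gene and ends at the base before its start.
Aars1: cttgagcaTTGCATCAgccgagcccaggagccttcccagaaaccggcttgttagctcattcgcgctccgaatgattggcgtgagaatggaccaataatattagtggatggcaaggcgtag
Mars1: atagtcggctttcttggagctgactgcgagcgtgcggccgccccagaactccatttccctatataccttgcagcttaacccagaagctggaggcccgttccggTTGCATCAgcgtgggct
Tars1: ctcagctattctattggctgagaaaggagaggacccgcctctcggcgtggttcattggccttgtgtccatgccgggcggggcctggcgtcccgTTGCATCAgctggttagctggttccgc
Iars1: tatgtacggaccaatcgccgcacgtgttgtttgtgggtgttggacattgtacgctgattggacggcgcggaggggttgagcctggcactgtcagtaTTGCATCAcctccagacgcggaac
The match shown began 112 bases before the start in Aars1, and 17, 27 and 24 bases before it in Mars1, Tars1 and Iars1. Aars1 held a second match 9 bases after its start, outside the stretch shown. A match is a description of the letters and not a bound site. The glucocorticoid response element, written as GNACA and TGTNC with 3 bases between them and searched on both strands, was in 147 promoters (0.439%) and in 0 of the 56 members, which says only that these letters are not in this window. Slc1a1 and Slc1a5 are among the genes without an entry.

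Signals are Affymetrix intensities in arbitrary units, rescaled so that the mean of each array, without the outer 2% of probe sets at each end, was 500. They were at that level as deposited on replicates 1 and 2 of both groups, and at 202 to 336 on replicates 3 and 4, which needed factors of 1.49 to 2.48 (2.48 on control 3). These 2 array sets recur below. The ratio of the 3′ to the 5′ probe set of beta-actin, a sign of RNA quality and labelling length, was 8.1 to 13.7 on control arrays and 6.17 to 8.07 on dexamethasone arrays, without overlap. The same ratio of Gapdh overlapped (2.1 to 3.79 against 2.14 to 3.18). Sgk1 and Tsc22d3, known glucocorticoid targets, had log2 fold changes of 3.19 and 2.16 (adjusted p = 1.09e-06 and 4.13e-05, limma). Of 9 epithelial markers, 8 lay above the level of silent genes on all 8 arrays, and 0 of 6 neuronal markers did so on any. Fibroblast markers were above it on all 8 arrays for 4 of 9 genes (Col1a1, Col1a2, Col3a1 and Postn) and on no array for 5. So were Col2a1, 1 of 5 cartilage and bone markers, and S100b, 1 of 4 markers of Schwann cells and glia, on all 8 arrays. The summed epithelial markers overlapped between the groups (47002 to 58745 in control, 46559 to 51583 with dexamethasone). Of these markers, Krt18 fell (log2 fold change -0.47, adjusted p = 0.03, limma) and Krt8 was lower without overlap (-0.33, adjusted p = 0.197, limma). Epcam differed by -0.05, and Krt19, Cldn7, Cdh1, Ocln, Cldn4 and Krt7 by 0.09 to 0.31, all with overlap and none called. The silent level is the 95th percentile, on each array, of genes of tissues such as retina, liver and testis. The summed endothelial markers were higher with dexamethasone (2656 to 3174 against 832 to 1104), which was Kdr (mean 704 to 2763). Flt1 fell by 1.96 on the log2 scale (adjusted p = 0.02, limma), and Pecam1, Flt1 and Vwf were above the silent level on no array. The summed macrophage markers were also higher (1005 to 1237 against 748 to 960), mainly through Cd14 (mean 278 to 544, adjusted p = 0.0809, limma). None of the macrophage markers was called, the means of Csf1r and Aif1 were lower, and Ptprc, Cd68, Csf1r and Tyrobp were above the silent level on no array. Their part in the results that follow was not tested.

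Of the 68 members, 35 had signals above the silent level on all 8 arrays, 7 on some and 26 on none. The level is set by Myh1, whose 5 probe sets were the highest of its list. Without Myh1, a choice made after the data were seen, the counts were 41, 8 and 19. The synthetases were above it almost throughout, with 17 of 20 genes on all arrays (18 without Myh1). Of the 8 enzymes, 6 were (7 without Myh1), and of the 40 carrier genes 12 were (16 without Myh1). A mean signal of at least 100 admitted 49 members to the test: 22 carrier genes, 7 enzymes and all 20 synthetases.

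Dexamethasone changed 2 of the 49 members tested, both glutamate or glutamine carriers of the SLC1 family: Slc1a1 rose and Slc1a5 fell. Over all 7627 genes tested, 2.73% were called, 1.87% higher and 0.852% lower (limma, Benjamini-Hochberg adjusted p under 0.05 over all probe sets tested), so that 2 of 49 is near the background. No enzyme and no tRNA synthetase was called. The median log2 fold change of the members was -0.08, against -0.04 for all genes tested, and 31 of 49 lay below 0, against 56.8% of all genes. The groups did not overlap for 7 members, 4 with higher and 3 with lower signals under dexamethasone, against 11.4% of all genes (5.41% higher and 5.97% lower).

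**Figure D1:**
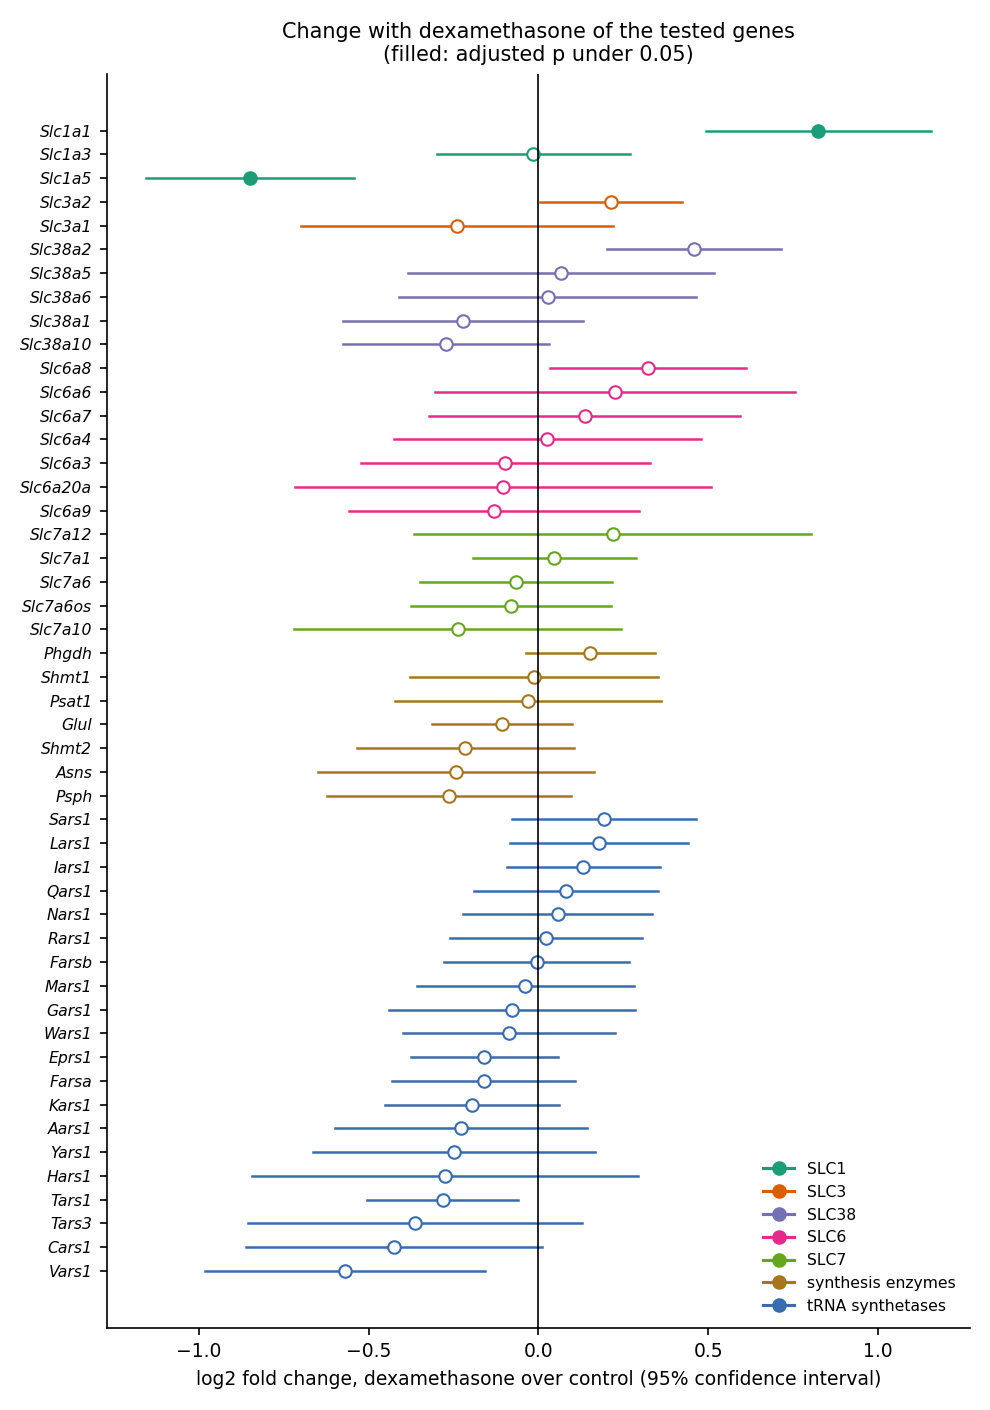
Log2 fold change, dexamethasone over control, of the 49 genes tested, coloured by family. Points are estimates from limma on 4 control and 4 dexamethasone arrays, lines are 95% confidence intervals, and the only filled points, Slc1a1 at 0.82 and Slc1a5 at -0.85, passed an adjusted p of 0.05.

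Slc1a1 encodes EAAT3, a sodium-driven carrier that takes glutamate, aspartate and cysteine into epithelial cells and neurons. Its signals were 481, 434, 390.4 and 442 on control arrays 1 to 4, and 992, 823, 624 and 696 on dexamethasone arrays 1 to 4. Every dexamethasone array was above every control array, and among the treated cultures replicates 1 and 2 were the highest. The mean rose from 437 ± 37.0 to 784 ± 161 (SD, n = 4 each), or 1.77-fold. On the log2 scale the difference was 0.82, with an SE of 0.15 and a 95% interval from 0.49 to 1.15 (limma, adjusted p = 0.0121). A second probe set of Slc1a1 ran from 325 to 558 in control and from 449 to 852 with dexamethasone. Its groups overlapped, and its log2 fold change was 0.59 (adjusted p = 0.18, limma).

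Slc1a5 encodes ASCT2, an exchanger through which many growing cells take up glutamine. Its control signals were 933, 884, 1069 and 937, and those with dexamethasone 449, 682, 497 and 516. The highest dexamethasone value stood clear of the lowest control value. The mean fell from 956 ± 79.2 to 536 ± 101 (SD, n = 4 each), with a difference of -0.85 on the log2 scale, an SE of 0.14 and a 95% interval from -1.16 to -0.54 (limma, adjusted p = 0.00696). For both genes the exact permutation test (two-sided) gave p = 0.0286, the smallest that 4 arrays against 4 allow.

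Both genes kept their direction within each array set: the log2 difference of Slc1a1 was 0.98 in the first set (replicates 1 and 2) and 0.67 in the second (replicates 3 and 4), and that of Slc1a5 -0.71 and -0.98. The calls of both were lost with no filter on low signals (adjusted p = 0.0756 and 0.0518, limma), with the signals as deposited (adjusted p = 1 for each) and with the beta-actin ratio as a covariate, where the log2 fold changes were 0.73 and -0.79 (adjusted p = 0.237 and 0.148, limma). The beta-actin ratio did not overlap between the groups, so that the fit with it cannot fully tell it apart from dexamethasone. Within replicates 3 and 4 alone neither gene passed (adjusted p = 0.251 and 0.105), and within replicates 1 and 2 Slc1a1 did (adjusted p = 0.00609) and Slc1a5 did not (0.0716). The range over all alternatives was 0.00272 to 1 for Slc1a1 and 0.00305 to 1 for Slc1a5. The third SLC1 gene tested, Slc1a3, a glial type of glutamate carrier, had overlapping signals and differed by -0.02 on the log2 scale (limma, adjusted p = 0.973). Slc1a2 and Slc1a6, glutamate carriers of brain, had signals of 30.6 to 58.4 and 8.17 to 61.3 and were not tested.

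**Figure D2:**
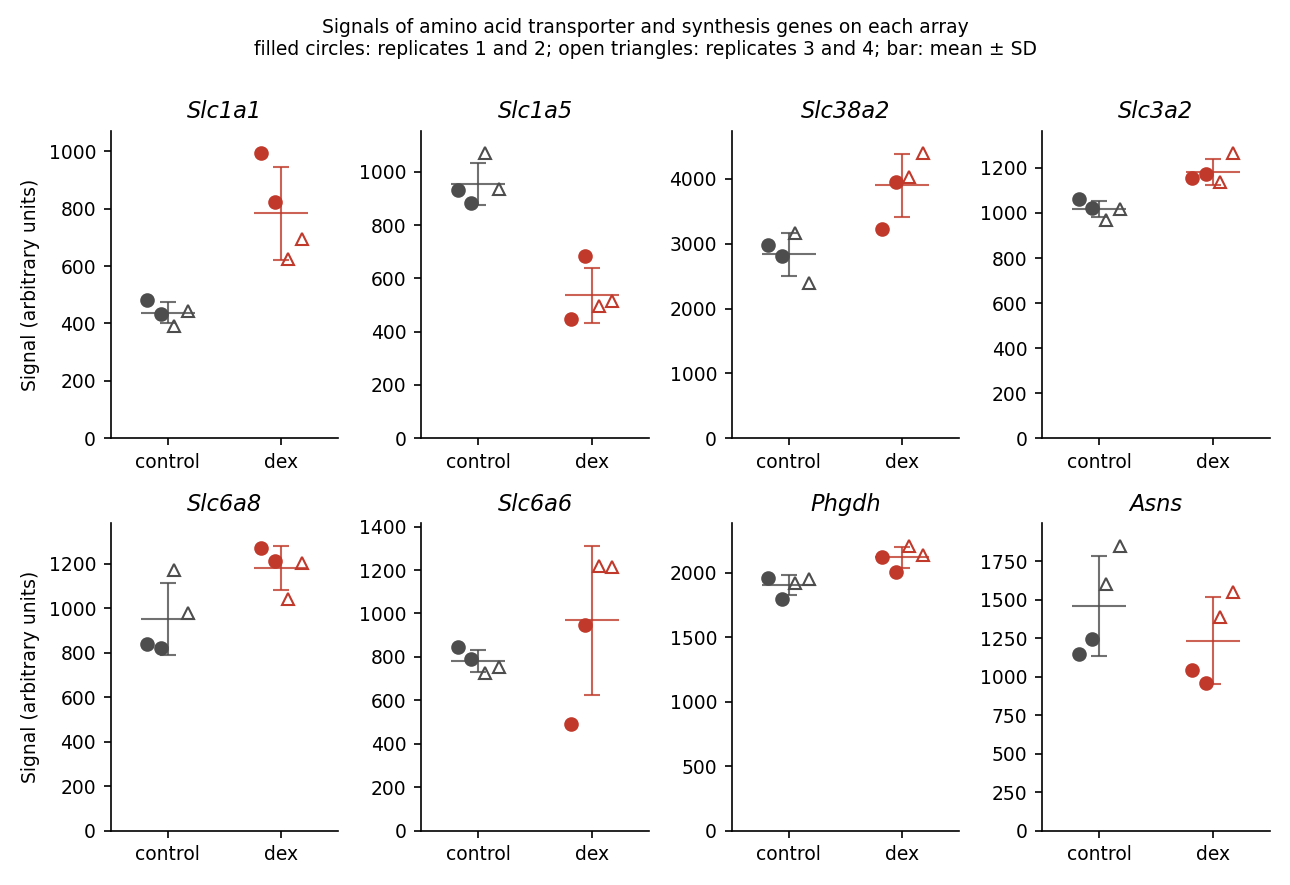
Signal in arbitrary units of 6 carrier and 2 enzyme genes on each array, in control and with dexamethasone (dex). Filled circles are replicates 1 and 2, open triangles replicates 3 and 4, and bars give mean and SD (n = 4). Slc1a1 separates upward and Slc1a5 downward, and Slc6a6 has 1 dexamethasone array at 490.4 below all control arrays.

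In the SLC38 family, Slc38a2 encodes SNAT2, a sodium-coupled carrier of small neutral amino acids that cells raise when amino acids run short. Its control signals were 2973, 2815, 3168 and 2395, and those with dexamethasone 3228, 3959, 4028 and 4391. The groups did not overlap, but the lowest dexamethasone array lay close to the highest control array. The log2 fold change was 0.46 (SE 0.12, adjusted p = 0.0659, limma), which missed the threshold. It passed when the array set entered the model as a block (adjusted p = 0.04, a fit that called 5.57% of all genes) and without dexamethasone replicate 1 (0.55, adjusted p = 0.0356), and its adjusted p ranged from 0.0356 to 1 over the alternatives. Slc38a1, which encodes the related carrier SNAT1, differed by -0.22 (adjusted p = 0.551, limma), with signals of 413 to 666 over both groups. Slc38a10, Slc38a5 and Slc38a6 gave log2 fold changes of -0.27, 0.07 and 0.03, none past the test. Slc38a3 and Slc38a4 were too dim to test, with signals of 11.3 to 47.7 and 2.64 to 38.7.

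Slc3a2 encodes the heavy chain that carries SLC7 exchangers to the cell membrane. Its control signals were 1061, 1024, 971 and 1019, and those with dexamethasone 1156, 1171, 1136 and 1264. The groups did not overlap, yet the difference was small (log2 fold change 0.21, SE 0.10, adjusted p = 0.297, limma). Its best-known partner Slc7a5, or LAT1, the exchanger of large neutral amino acids, had signals of 27.0 to 141 and was not tested (90.6 ± 53.2 in control and 77.8 ± 34.2 with dexamethasone, SD, n = 4 each). In both groups its lower values were those of replicates 3 and 4, at 27.0 to 67.0, against 99.6 to 141 on replicates 1 and 2. None of these signals was above the silent level, with or without Myh1. Slc7a1, the carrier of arginine and lysine, had signals of 1530.3 to 2007 and differed by 0.05 on the log2 scale (limma, adjusted p = 0.881). A second probe set of Slc7a1, above the silent level on all 8 arrays, differed by -0.21 (adjusted p = 0.478, limma). Slc7a6, a light chain for basic and neutral amino acids, differed by -0.07, and Slc7a6os by -0.08, neither past the test. Slc3a1, Slc7a10 and Slc7a12 gave log2 fold changes of -0.24, -0.24 and 0.22, none past the test. Slc7a2, Slc7a3, Slc7a7, Slc7a8 and Slc7a9, and Slc36a1, a proton-coupled carrier of lysosomes, were not tested and lay below the silent level on every array.

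Among the 14 SLC6 genes, Slc6a8 and Slc6a6, the carriers of creatine and taurine, were the only ones above the silent level on all 8 arrays. Without Myh1 there were 5. Slc6a8, named after its values were seen, had control signals of 839.7, 819, 1169.5 and 976.5 and dexamethasone signals of 1269.9, 1210.1, 1039.6 and 1204. Its groups overlapped through control 3 (log2 fold change 0.32, adjusted p = 0.258, limma). Within replicates 1 and 2 it differed by 0.58 (adjusted p = 0.0262) and within replicates 3 and 4 by 0.07, and its second probe set differed by -0.15 (adjusted p = 0.712, limma). Slc6a6 had control signals of 845, 791, 728 and 755.5, and dexamethasone signals of 490.4, 948, 1219 and 1216. Dexamethasone 1 was below and the other 3 were above every control array, and the log2 fold change was 0.23 (SE 0.24, adjusted p = 0.709, limma). It was -0.26 in the first array set and 0.71 in the second. The neurotransmitter carriers Slc6a3 (dopamine), Slc6a4 (serotonin), Slc6a7 (proline) and Slc6a9 (glycine), and Slc6a20a (proline and related acids), gave log2 fold changes from -0.13 to 0.14, none past the test. Slc6a2, Slc6a5, Slc6a11, Slc6a13, Slc6a15, Slc6a17 and Slc6a18 were not tested.

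Most of the enzymes belong to the pathway that turns a glycolytic intermediate into serine and glycine. With limma, 0 of the 7 enzymes tested were called, 0 had an unadjusted p under 0.05 (against 16.2% of all genes), and the median log2 fold change was -0.11. Phgdh, which catalyses the first step, had control signals of 1959.9, 1795, 1916 and 1949 and dexamethasone signals of 2118, 2008, 2207 and 2139. The groups did not overlap, with a log2 fold change of 0.15 (SE 0.09, adjusted p = 0.435, limma). Psat1 and Psph, which catalyse the next steps, differed by -0.03 and -0.26, and Shmt1 and Shmt2, which split serine to glycine, by -0.01 and -0.22 (adjusted p from 0.485 to 0.983, limma).

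Glul, which makes glutamine from glutamate, had signals of 4427 to 5347 in control and 4109 to 5147 with dexamethasone. Its log2 fold change was -0.11 (adjusted p = 0.632, limma), and its 3 probe sets gave -0.38 to -0.11. The second strongest (mean signal 4106, against 4814) gave -0.38, with an unadjusted p of 0.00755 and an adjusted p of 0.127 (limma). Tat, which starts tyrosine breakdown in liver, had signals of 2.83 to 11.7, all below the floor of 16 that was set before taking logarithms, and has no fold change. Asns makes asparagine and is a classical ATF4 target. Its control signals were 1147, 1243, 1599 and 1849, and those with dexamethasone 1044, 959.6, 1384 and 1552. The groups overlapped (log2 fold change -0.24, SE 0.19, adjusted p = 0.575, limma), and in both groups replicates 3 and 4 were above replicates 1 and 2.

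The tRNA synthetases, which join each amino acid to its tRNA, all had signals past the filter, and none passed the test with dexamethasone (limma). Of the 20 genes, 2 had an unadjusted p under 0.05 (against 16.2% of all genes) and 14 lay below 0 (against 56.8%). The median log2 fold change was -0.12 against -0.04 for all genes. Adjusted p-values ran from 0.156 to 0.989 (limma), and no synthetase was called under any alternative that kept the test. By the 1.3-fold limit on the median of the 16 ratios, which has no test, Vars1, Cars1 and Tars3 were past it (-0.69, -0.43 and -0.39 on the log2 scale), among 7 members and 13.6% of all genes. The largest differences downward were those of Vars1 (valine), Cars1 (cysteine) and Tars3, a second threonine enzyme, with log2 fold changes of -0.57, -0.43 and -0.36 (adjusted p = 0.156, 0.327 and 0.48). Vars1 had control signals of 258, 285, 269 and 228 and dexamethasone signals of 162, 249.6, 164 and 141, overlapping through dexamethasone 2. Vars1 was above the silent level on 1 of 8 arrays and Tars3 on 0 of 8, so that the size of their differences is uncertain. Without Myh1 these counts were 7 and 2 of 8. The 3 probe sets of Cars1 gave -0.43, -0.39 and 0.05. The largest differences upward were those of Sars1 (serine), Lars1 (leucine) and Iars1 (isoleucine), at 0.19, 0.18 and 0.13 (adjusted p from 0.496 to 0.585). By the strongest probe set of each gene, only Tars1 and Farsa had groups without overlap, both lower with dexamethasone. These were 2 of the 20 synthetases, against 11.4% of all genes (5.97% lower). A second probe set of Cars1 was also lower without overlap (log2 fold change -0.39, adjusted p = 0.145, limma). Tars1 (threonine) had control signals of 1496, 1582, 1766 and 1553 and dexamethasone signals of 1319.5, 1188, 1326 and 1427 (log2 fold change -0.28, SE 0.10, adjusted p = 0.19, limma). Farsa, the alpha subunit of the phenylalanine enzyme, had control signals of 398, 405, 502 and 408 and dexamethasone signals of 380.3, 396, 393 and 356 (log2 fold change -0.16, adjusted p = 0.575, limma). Its partner Farsb differed by -0.01. The other synthetases had log2 fold changes from -0.27 (Hars1) to 0.08 (Qars1).

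Several synthetases and Asns differed between the array sets, whatever the treatment. With treatment and array set both in the model, 5 of 49 members were higher on replicates 3 and 4 than on replicates 1 and 2, and 0 were lower, against 1.49% and 2.05% of all 7627 genes (limma, adjusted p under 0.05). They were Asns and the synthetases for tyrosine (Yars1), glycine (Gars1), alanine (Aars1) and methionine (Mars1), with log2 differences of 0.54, 0.54, 0.45, 0.45 and 0.38 (adjusted p = 0.0178, 0.0243, 0.0337, 0.0462 and 0.0432). Yars1 had signals of 642 to 872 on replicates 1 and 2 of both groups, and of 991.5 to 1302 on replicates 3 and 4. Gars1 had 2044 to 2305 on the first and 2642 to 3519.5 on the second, and no array of 1 set reached into the other for either gene. Among the 20 synthetases the median of this difference was 0.22 and 15 lay above 0, against 43.9% of all genes. The 22 carrier genes had a median of -0.06 and none called.

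Of these 5 genes, Aars1, Mars1 and Yars1 hold the C/EBP-ATF letters in the promoter window, Asns has an entry without them, and Gars1 has no entry. Cars1, Iars1, Nars1, Tars1, Slc38a1 and Slc7a1 hold the letters and were not called between the array sets. Outside the members, 5 of the 93 other genes tested were higher on replicates 3 and 4 and 0 lower, against 1.49% and 2.05% of all genes. They were Chac1, Aimp2, Mat2a, Eef1g and Rraga, named after their values were seen (adjusted p from 0.0201 to 0.0438, limma). Chac1, an ATF4 target that degrades glutathione, was the only one of the 20 genes of the amino acid response called (0.50). Atf4 itself differed by 0.28 (adjusted p = 0.0677) and Nupr1 by -0.44, neither past the test. The 20 genes ran from -0.45 (Cebpb) to 1.18 (Mthfd2), with a median of 0.08 against -0.03 for all genes. Of the 20, 13 lay above 0, against 43.9% of all genes. The array sets were defined by the scaling of the deposited signals and are not groups of the study. Cell type markers also differed between them in the same fit, named after their values were seen. The cartilage marker Col2a1 was lower on replicates 3 and 4 (-1.21, adjusted p = 0.00592, limma). The fibroblast markers Col1a2 and Postn were higher (0.72 and 0.66, adjusted p = 0.011 and 0.0353, limma), and no other marker tested was called. The part of these markers in the differences above was not tested.

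**Figure D3:**
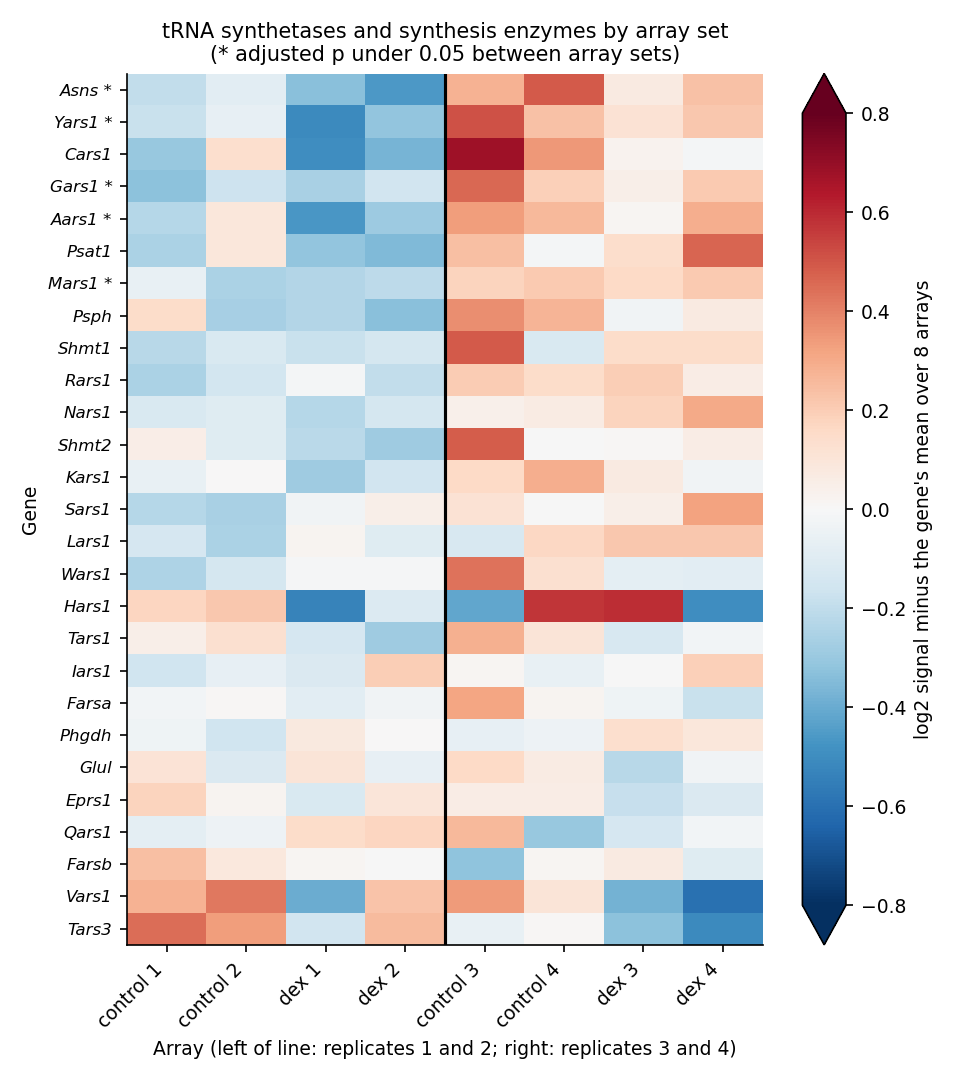
Log2 signal of the 20 tRNA synthetases and the 7 enzymes tested on each of the 8 arrays (dex, dexamethasone), minus the mean of the gene over the 8 arrays. Red is above and blue below that mean, the black line divides replicates 1 and 2 from replicates 3 and 4, asterisks mark an adjusted p under 0.05 between the array sets, and genes are ordered by that difference, with Asns and Yars1 at the top.

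Among other genes of amino acid metabolism, dexamethasone changed 5 of 93 tested: Nupr1, Ddit4 and Eef2k rose, and Gls2 and Arg1 fell. Over all genes tested the share called was 2.73%, with 1.87% higher and 0.852% lower. In the list of the amino acid response, 2 of the 20 genes tested were higher and 0 lower, with a median log2 fold change of 0.01. Nupr1, a small nuclear protein induced by stress, had control signals of 328, 265, 212 and 319 and dexamethasone signals of 1058, 768, 493 and 629. The groups did not overlap, with a log2 fold change of 1.35 (SE 0.22, adjusted p = 0.00682, limma). Ddit4, an inhibitor of the growth kinase complex mTORC1 and a known glucocorticoid target, went from 1129 ± 48.6 to 1786 ± 337 (SD, n = 4 each; log2 fold change 0.64, adjusted p = 0.0248, limma). Atf4 had control signals of 3092, 3123, 3452 and 3574 and dexamethasone signals of 2798, 2706, 3442 and 3762, with overlap (log2 fold change -0.07, adjusted p = 0.827, limma).

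In the list of amino acid breakdown and transamination, 0 of 22 genes tested were higher and 2 lower, with a median of 0.09. Gls2, a glutaminase of mitochondria that releases glutamate from glutamine, fell from 406 ± 63.0 to 226 ± 43.3 (SD, n = 4 each; log2 fold change -0.85, adjusted p = 0.0208, limma). Arg1, which splits arginine to ornithine and urea, had control signals of 201, 219.5, 253 and 301 and dexamethasone signals of 118, 101, 126 and 133, and fell by 1.02 on the log2 scale (adjusted p = 0.0101, limma). Its groups did not overlap, but only 1 control array and no dexamethasone array had Arg1 above the silent level. Gls2 was above it on all control arrays and no dexamethasone array. In the list of translation factors, 1 of 22 genes tested was higher and 0 lower. It was Eef2k, the kinase that restrains translation elongation, which went from 239 ± 36.2 to 414 ± 16.0 (SD, n = 4 each; log2 fold change 0.80, adjusted p = 0.0093, limma). Eef2k was above the silent level on 0 of 4 control arrays and Nupr1 on 2 of 4. The fold changes of Arg1, Gls2, Eef2k and Nupr1 thus rest partly on signals at that level, and their size is uncertain. Without Myh1 the level was lower, at 99 to 182 over the arrays. Control signals of Arg1 (201 to 301) and Nupr1 (212 to 328) were above that range. With dexamethasone, Arg1 (101 to 133) lay within it and Gls2 ran from 180 to 284.

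None of the 3 scaffold genes of the synthetase complex, the 4 mitochondrial synthetases tested, the 8 other carriers tested and the 14 mTORC1 pathway genes tested was called (median log2 fold changes -0.18, -0.13, -0.04 and -0.01). All 5 calls were lost with the beta-actin ratio as a covariate (adjusted p from 0.138 to 0.341, limma), where the log2 fold changes were 1.13 (Nupr1), 0.64 (Ddit4), 0.81 (Eef2k), -0.71 (Gls2) and -0.91 (Arg1). As that ratio did not overlap between the groups, this fit cannot fully tell it apart from dexamethasone. The calls were also lost with the signals as deposited and within replicates 3 and 4 alone. Each of the 5 kept its direction in both array sets, Nupr1 for example with log2 fold changes of 1.61 and 1.10. Ddit4 and Gls2 were called in 4 of the 8 fits that left out 1 array.

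**Figure D4:**
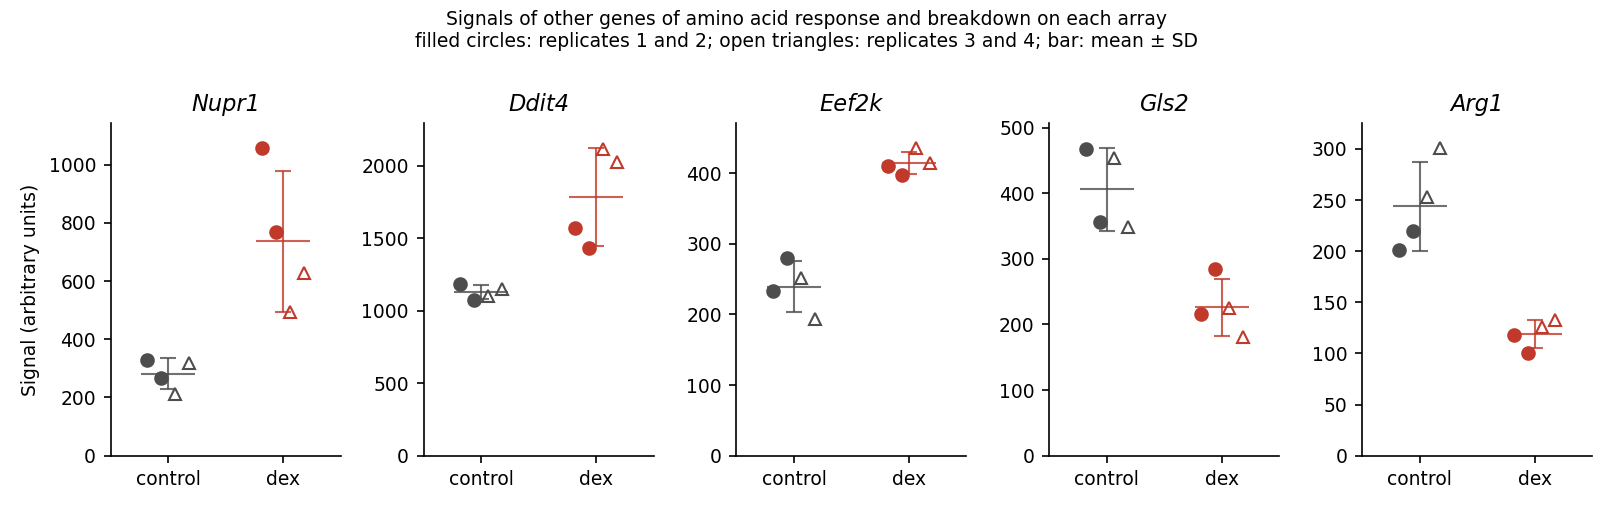
Signal in arbitrary units of the 5 genes of the other lists that passed the test, on each control and dexamethasone (dex) array. Filled circles are replicates 1 and 2, open triangles replicates 3 and 4, and bars give mean and SD (n = 4). Nupr1, Ddit4 and Eef2k lie higher and Gls2 and Arg1 lower with dexamethasone, without overlap for any of them.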

How the data were processed

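Total RNA from 4 control and 4 dexamethasone cultures was amplified in 2 cycles and measured on Affymetrix rat arrays. The authors deposited linear signal intensity values with a stated scaling target of 500, without detection calls. Replicates 3 and 4 lay below that target, so each array was rescaled to a 2% trimmed mean of 500. Signals were floored at 16, logged (log2) and tested where the mean over 8 arrays was at least 100 (10368 of 15866 probe sets without controls). A gene was represented by its strongest probe set, named only from annotation with a single symbol (12783 probe sets, with 312 holding several and 2771 none). All 68 member genes matched RefSeq by Entrez identifier.

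The test was that of limma 3.58.1, run under R 4.3.3 (mean-variance trend, two-sided, Benjamini-Hochberg over all probe sets tested, threshold 0.05). The script was tested on simulated data. The number of arrays limits the precision. Members, lists and tests were chosen with earlier results of these data known. Named genes were members past the test, members without overlap, the 3 largest synthetase differences in each direction, fixed genes of carriers and synthesis, Atf4, genes of the other lists past the test, and Sgk1 and Tsc22d3. Genes named otherwise, such as further members and cell type markers, are described by value or range, or said to be chosen afterwards. Alternatives were the filter, scaling, floor, variance model, blocks, array sets alone, the beta-actin covariate, arrays left out in turn, the mean of a gene's probe sets, and a 1.3-fold limit on the median of 16 ratios without a test.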

Additional observations from a re-analysis of the deposited data

Results flagged for a closer look

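In 62 groups of 4 arrays examined, chance alone marks about 1 group in 20 as holding an array far from the rest, and 2 were marked, both through control 3, the array with the largest rescaling factor (2.48). Farsa stood at 502 on control 3 and at 398 to 408 on the other control arrays, a gap of 0.886 of the range of the group. Shmt1 stood at 711 on control 3 and at 435 to 467 on the others, a gap of 0.856 of the range. Both gaps exceed the critical value of Dixon's test for groups of this size, and a part of the rescaling in these values was not tested.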

How the results depend on the processing

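Of the members, Slc1a1 and Slc1a5 were the 2 called, and the count was 0 with no filter, with the signals as deposited, within replicates 3 and 4 alone and with the beta-actin covariate. It was 7 by the 1.3-fold limit without a test (13.6% of all genes), and 2 to 3 when arrays were left out, Slc38a2 being the addition without dexamethasone replicate 1. The 5 calls in the other lists became 1 with no filter, 0 with the signals as deposited, within replicates 3 and 4 and with beta-actin, 2 within replicates 1 and 2, 10 when the array set was a block, and 3 to 5 with arrays left out (3 without control 3 or dexamethasone 4).

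The 279 probe sets called became 102 with no filter, 36 with the signals as deposited, 578 when the array set was a block, 440 and 21 within replicates 1 and 2 and within 3 and 4, 65 with beta-actin, and 180 to 275 with arrays left out (lowest without dexamethasone 2). With the signals as deposited 94.4% of the calls were higher against 69.9%, and the median log2 fold change of all probe sets tested was 0.14 against -0.02. The replicate number as a block gave 484 probe sets and the same 2 members. Same-numbered samples deviated together with correlations of 0.35, 0.25, 0.035 and 0.41. Differently numbered samples of the first array set gave 0.33 (control 1 with dexamethasone 2) and 7e-04 (control 2 with dexamethasone 1). Those of the second set gave -0.026 (control 3 with dexamethasone 4) and 0.43 (control 4 with dexamethasone 3). The numbers were not taken to pair the samples.

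Reversed signs occurred only in genes not called. As deposited, the log2 fold changes were 0.0018 (Farsa), 0.15 (Slc1a3), 0.13 (Psat1), 0.15 (Shmt1), 0.0555 (Glul) and 0.0931 (Atf4). Within replicates 1 and 2 they were -0.26 (Slc6a6), 0.0128 (Shmt1) and 0.0217 (Glul), and within replicates 3 and 4 0.20 (Slc1a3), 0.19 (Psat1) and 0.0349 (Atf4). With beta-actin they were 0.0229 (Farsa), 0.0277 (Psat1), 0.30 (Shmt1) and 0.0282 (Shmt2), and with the mean of probe sets -0.0807 (Slc7a1). With arrays left out, Slc7a1 ran from -0.0232 to 0.11, Slc1a3 from -0.0884 to 0.0748, Psat1 from -0.19 to 0.0831, Shmt1 from -0.0884 to 0.15 and Atf4 from -0.16 to 0.0023. The causes were not tested.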
